A study of Homo sapiens with 32 samples.

Results

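Interferon-stimulated genes are the genes that a cell switches on when it senses interferon, a group of secreted antiviral proteins. The 39 genes described here were chosen by name, by matching the Ensembl identifiers of the count table to gene symbols, and all 39 were found among 60107 genes. They comprise the signal transcription factors STAT2, IRF1, IRF7 and IRF9, the RNA sensor IFIH1, 4 oligoadenylate synthetases, 4 IFIT proteins, 3 IFITM proteins with BST2, 7 other antiviral effectors, ISG15 with 4 proteins of its conjugation pathway, 4 proteins of ADP-ribosylation, and 6 genes that comprise 5 IFI genes and XAF1.

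Interferon binds its receptor, receptor-bound Janus kinases phosphorylate STAT proteins, and STAT2 joins IRF9 in a complex that binds the interferon-stimulated response element in promoters. Damaged or misplaced DNA can enter the same programme through the sensor cGAS and its adaptor STING, and double-stranded RNA through RIG-I and IFIH1. Several of the genes are also transcribed at a low level in cells that meet no interferon.

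The RNA came from HEK293T, a human embryonic kidney line that carries the large T antigen, and from U2OS, a human osteosarcoma line, and the study concerned protein aggregation after DNA damage and loss of the kinase ATM, with the RNA taken from the cells used for proteomics. By their labels the 32 libraries were 4 of U2OS treated with camptothecin (CPT, a topoisomerase I poison) and 4 of U2OS with its solvent DMSO, 4 of HEK293T with CPT, 8 of HEK293T with DMSO, 4 labelled HEK293T ATM KO, 4 of U2OS ATM KO and 4 of U2OS WT. The labels give 24 h of CPT or DMSO and 48 h of recovery for HEK293T and 72 h of growth for untreated U2OS. They give no times for libraries 18 to 21 and 26 to 33. The study's methods describe drug for 24 h and harvest 48 h later as its general schedule. For proteomics its CPT dose was higher in U2OS than in HEK293T. The U2OS knockout was made with CRISPR/Cas9 from picked clones, for HEK293T the study describes RNA-seq with an ATM inhibitor and not of a knockout, and the 4 libraries of a comparison are stated to be independent biological repeats.

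Each library goes by its title's number, and for libraries 1 to 17 the labels and the cell line markers disagreed. COL1A1, a collagen gene of osteoblasts, averaged 1171 CPM (counts scaled to a total of 1000000 on genes) in libraries 2, 4, 6 and 8, which are labelled HEK293T CPT, and 20.2 CPM in libraries 10, 12, 14 and 16, which are labelled U2OS ATM KO. LIN28B, an RNA-binding protein of embryonic cells, averaged 74.5 CPM in HEK293T DMSO libraries 22 to 25 and 15 CPM in U2OS DMSO libraries 30 to 33. It averaged 14.2 CPM in libraries 2, 4, 6 and 8 and 87.6 CPM in libraries 10, 12, 14 and 16. Among the other HEK293T markers, NEFM and INA separated the libraries in the same way, whereas PAX2 and NEFL did not. Of the 5 HEK293T markers, 4 were lower and 1 was higher in U2OS DMSO than in HEK293T DMSO libraries 22 to 25, all without overlap. Libraries 1, 3, 5 and 7 carry the label U2OS WT for library 1 and HEK293T DMSO for the others, and libraries 11, 13, 15 and 17 carry the label HEK293T DMSO for library 17 and U2OS WT for the others. The comparisons that involve these libraries follow the rule that defines this set of genes, which reads 10 to 17 as HEK293T with CPT and DMSO and 1 to 8 as U2OS with and without an ATM knockout. The labels do not say so, hence each arm is called by its numbers and no direction is given for a drug or a genotype.

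The ATM transcript did not separate the arms. ATM stood at 63.3 to 85.5 CPM in U2OS with CPT and 55.0 to 87.7 CPM in U2OS with DMSO. It stood at 54.5 to 74.1 CPM in the libraries labelled HEK293T ATM KO and at 57.8 to 82.0 CPM in HEK293T DMSO libraries 22 to 25. It stood at 28.8 to 39.8 CPM in libraries 10, 12, 14 and 16, and at 21.2 to 36.3 CPM in libraries 11, 13, 15 and 17. It stood at 34.2 to 61.7 CPM in libraries 2, 4, 6 and 8, and at 53.4 to 68.4 CPM in libraries 1, 3, 5 and 7. The arms overlapped in each of these pairs. A 3′ tag count need not fall with an inhibitor or with a CRISPR/Cas9 edit, whose extent is not given, so it checks no label. Depth was 1232674 to 6362433 counts on genes per library, so that 3 counts, the floor used here, were worth 0.472 to 2.43 CPM. The counts are 3′ tags, CPM are unscaled, and in bulk RNA a change in the number of cells and a change in RNA per cell cannot be told apart.

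The promoters of the genes were read from RefSeq (GRCh38.p14) and searched for the letters of the response element described above. Promoter windows were matched for 32 of the 39 genes by symbol; IRF7, OAS2, OASL, IFIT2, IFITM2, TRIM22 and USP18 had no entry. The core of the response element, searched on both strands as GAAA, 2 bases of any kind and GAAA again within 250 bases before the start, was found in 21 of these 32 genes (65.6%), and in 1014 of 27305 genes with a window (3.71%). The core of the gamma-activated site, searched as TTC, 3 bases of any kind and GAA, was found in 9 of the 32 (28.1%) and in 8.09% of all genes with a window. A match is a run of letters and not a measured binding site. Windows of 6 genes whose transcripts carry the results are shown 5′ to 3′ on the gene's strand, with matches to the response element core in capitals. IFIT3 and IFIT1 lie in the same cluster on chromosome 10, and SAMD9 and SAMD9L are adjacent on chromosome 7.
IFIT3 (chr10:89327747-89327996, plus strand): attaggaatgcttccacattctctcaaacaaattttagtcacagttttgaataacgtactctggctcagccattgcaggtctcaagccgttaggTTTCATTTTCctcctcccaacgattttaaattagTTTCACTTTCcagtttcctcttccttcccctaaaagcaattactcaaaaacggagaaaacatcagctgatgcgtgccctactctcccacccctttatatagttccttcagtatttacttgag
IFIT1 (chr10:89392373-89392622, plus strand): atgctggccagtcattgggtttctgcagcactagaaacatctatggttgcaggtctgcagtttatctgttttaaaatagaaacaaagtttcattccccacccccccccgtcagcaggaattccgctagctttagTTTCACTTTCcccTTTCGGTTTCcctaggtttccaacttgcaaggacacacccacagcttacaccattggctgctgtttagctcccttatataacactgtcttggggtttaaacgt
IFI44L (chr1:78620198-78620447, plus strand): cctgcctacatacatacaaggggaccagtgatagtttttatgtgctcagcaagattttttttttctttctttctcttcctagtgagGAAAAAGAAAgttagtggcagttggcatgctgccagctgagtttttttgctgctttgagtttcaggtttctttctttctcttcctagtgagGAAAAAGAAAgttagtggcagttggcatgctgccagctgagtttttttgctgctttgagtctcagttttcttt
PARP14 (chr3:122680589-122680838, plus strand): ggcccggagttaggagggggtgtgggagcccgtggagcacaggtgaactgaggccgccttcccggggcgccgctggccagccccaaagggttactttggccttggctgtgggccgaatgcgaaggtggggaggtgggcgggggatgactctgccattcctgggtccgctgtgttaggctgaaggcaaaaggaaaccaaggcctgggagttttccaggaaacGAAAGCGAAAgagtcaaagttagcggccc
SAMD9 (chr7:93117980-93118229, minus strand): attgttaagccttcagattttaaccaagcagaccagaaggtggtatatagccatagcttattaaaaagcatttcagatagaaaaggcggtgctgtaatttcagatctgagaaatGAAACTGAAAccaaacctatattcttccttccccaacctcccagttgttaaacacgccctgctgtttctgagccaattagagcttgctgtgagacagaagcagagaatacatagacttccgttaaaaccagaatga
SAMD9L (chr7:93148386-93148635, minus strand): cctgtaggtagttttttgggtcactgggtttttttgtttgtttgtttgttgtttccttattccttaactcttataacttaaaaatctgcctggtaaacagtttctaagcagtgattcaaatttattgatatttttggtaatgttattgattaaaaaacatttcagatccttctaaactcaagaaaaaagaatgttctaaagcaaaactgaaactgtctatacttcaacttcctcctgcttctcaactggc
IFIT3, IFIT1 and IFI44L each held 2 matches, PARP14 and SAMD9 held 1 each, and none was found in the window of SAMD9L. A second window of IFIT3, not printed (chr10:89332279-89332528), also held 2 matches.

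The first comparison set the baseline of the genes in both lines against each other, in U2OS DMSO libraries 30 to 33 and HEK293T DMSO libraries 22 to 25, whose markers fit their labels. Most of the genes were far higher in U2OS. Summed over the 39 genes, U2OS DMSO libraries held 717 to 905 CPM and HEK293T DMSO libraries 155 to 176 CPM. Of 35 genes tested, 27 were higher in U2OS, 2 were lower and 6 did not pass the test, where passing takes a change of more than 1 on the log2 scale in either direction together with an adjusted p below 0.05. Adjusted p is throughout from the quasi-likelihood test of edgeR, adjusted by Benjamini-Hochberg over all genes tested. Across all 19739 genes tested, 21.8% were higher and 18.1% lower in U2OS. The median log2 fold change (U2OS over HEK293T) was 2.73 for the 35 genes, or 2.68 with the 4 genes that had an empty arm at their bound, and 0.014 for all genes tested. The lines were grown as separate cultures, so the line and its culture or library batch cannot be told apart.

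The genes of ADP-ribosylation had the largest median of the 9 groups (4.97), with 4 of 4 higher in U2OS. PARP14, a mono-ADP-ribosyltransferase, read 137, 128, 130 and 172 CPM in the U2OS DMSO libraries and 2.09, 1.14, 0.251 and 0.296 CPM in the HEK293T DMSO libraries. The log2 fold change was 7.45 ± 0.24 (SE, n = 4 and 4, adjusted p = 1.94e-23), or 8.13 without library 22, the highest of the HEK293T libraries. DTX3L, a ubiquitin ligase that partners PARP9, stood at 87.5 ± 8.28 against 5.51 ± 1.12 CPM (SD, n = 4 each), and PARP9 at 62.7 ± 5.27 against 3.30 ± 1.45 CPM. PARP9 and DTX3L lie head to head, and the strand setting of the counting is not given in the sources used here. PARP12 had 57 counts in U2OS and 1 in HEK293T, a ratio of 59.0 with an exact 95% interval of 10.2 to 2373 that covers counting error only, and the single count lay in library 24.

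SAMD9L, a growth-restricting antiviral factor, read 8.34, 9.29, 11.7 and 9.13 CPM in U2OS and had no count in any of the 4 HEK293T libraries. With the HEK293T libraries at the floor of 3 counts over the group, it was at least 45.6-fold higher in U2OS, and IFI44 was at least 25.6-fold higher on the same reckoning. SAMD9, its neighbour, stood at 41.1 ± 3.09 against 2.25 ± 0.809 CPM (log2 fold change 4.39 ± 0.21, SE, adjusted p = 4.71e-19). TRIM22, an antiviral ubiquitin ligase, had 126 counts against 3, a ratio of 43.5 with an exact 95% interval of 14.6 to 214. All 3 lay in library 24, without which the HEK293T arm was at 0 and the fitted log2 fold change went from 5.45 to 8.08, a value that then depends on the prior count.

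IFITM3, a membrane protein that blocks virus entry, stood at 103 ± 12.4 CPM in U2OS and 3.27 ± 1.11 CPM in HEK293T, a log2 fold change of 5.2 ± 0.18 (SE, adjusted p = 1.57e-22). IFITM2 differed by 2.40 ± 0.15 on the log2 scale, and reads of IFITM1, IFITM2 and IFITM3 may be shared because the copies are highly similar. OAS3, a synthetase of the 2-5A messenger that activates RNase L, stood at 24.4 ± 4.01 against 1.99 ± 0.338 CPM (log2 fold change 3.84 ± 0.24, adjusted p = 9.01e-16). Further genes higher in U2OS included IFIH1 (log2 fold change 3.44 ± 0.39), IFI44L (3.73 ± 0.29, or 4.36 without library 23), UBE2L6 (1.91 ± 0.18), ISG15 (1.55 ± 0.28) and IFI6 (1.70 ± 0.18). In even-numbered libraries 2 to 8 and odd-numbered 1 to 7 (U2OS-like markers) IFI6 averaged 29.5 and 34.6 CPM. In even-numbered 10 to 16 and odd-numbered 11 to 17 (HEK293T-like markers) it averaged 44.1 and 29.3 CPM. BST2, also higher in U2OS DMSO, averaged 0.380 and 1.13 against 2.02 and 1.60 CPM. The sums of the 39 genes kept the order, at 714 to 1057 and 454 to 688 against 267 to 317 and 169 to 178 CPM. The cause was not tested. OAS1, MX1, IFIT2, CMPK2 and ISG20 passed the test with 1 to 3 counts in the 4 HEK293T libraries, and OASL with no count there. Their fitted fold changes moved by more than 1.5 times without library 22 for OAS1, MX1 and ISG20, and without library 24 for CMPK2.

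The order was turned for 2 genes. HERC5, the main ligase that attaches ISG15 to proteins, read 2.47, 3.10, 2.05 and 2.64 CPM in U2OS and 23, 22.3, 29.6 and 26.7 CPM in HEK293T. It was lower in U2OS by 3.07 on the log2 scale (SE 0.22, adjusted p = 4.75e-14), without overlap between the arms. IRF7, the amplifier of interferon production, had 6 counts in HEK293T and 0 in U2OS, so it was at least 1.93-fold lower in U2OS. That call was lost under DESeq2, without any 1 of the U2OS libraries, and without HEK293T library 23 or 24. USP18, which removes ISG15 and may share reads with a near-identical copy, did not pass the cutoff on fold change (2.42 ± 0.475 against 5.42 ± 0.952 CPM). STAT2, IFIT5, IFI27, HERC6 and IFI35 did not pass either.

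**Figure D1:**
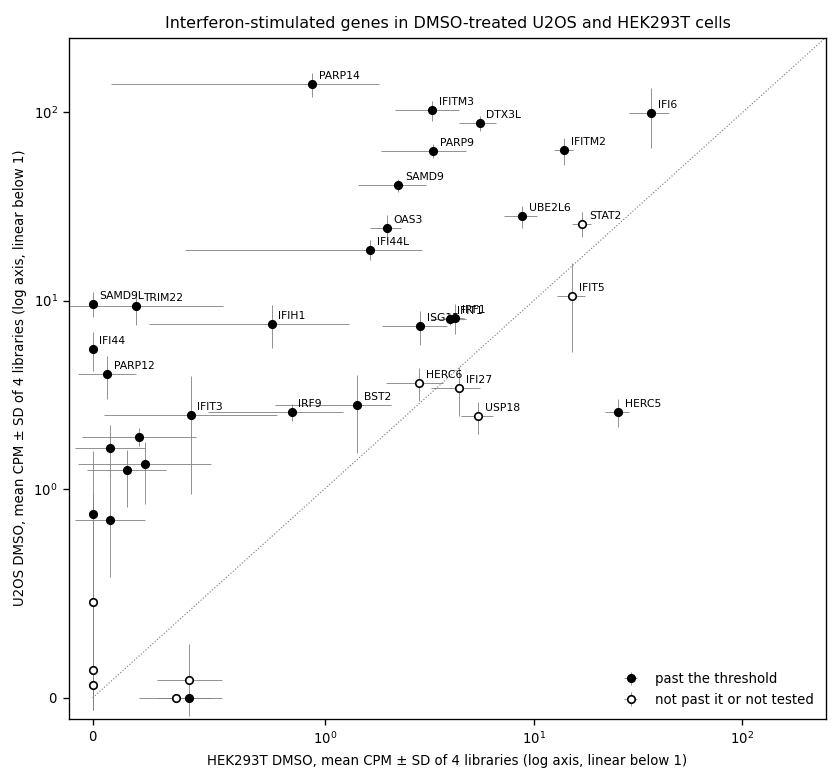
Mean CPM of each gene in HEK293T DMSO libraries 22 to 25 (horizontal) and U2OS DMSO libraries 30 to 33 (vertical), with bars of 1 SD over 4 libraries, on axes that are logarithmic above 1 CPM and linear below. Filled points passed the test, names are given where a mean reached 2 CPM, and HERC5 lies far to the right of the dotted line of equality while PARP14 lies at its upper left.

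Genes around the set, taken from lists of the pathway, were read in the same libraries. The interferon genes themselves were all but silent. Of 21 ligand genes, 1 was tested in this comparison and it did not pass, and in no library did the 21 together exceed 2 CPM. Among kinases, STATs, IRFs and SOCS genes 5 of 10 tested were higher in U2OS, led by SOCS1, an inhibitor of the Janus kinases, at 11.5 ± 6.14 against 0.200 ± 0.245 CPM. Among 13 genes of nucleic acid sensing that were tested 6 were higher in U2OS and 0 were lower, and the largest difference was in IFI16, a DNA sensor, at 91.5 against 1.79 CPM. CGAS, the gene of cGAS, stood at 23.5 ± 9.88 against 1.04 ± 0.796 CPM. Of the other interferon-induced genes 22 of 32 tested were higher and 1, EPSTI1, was lower in U2OS. Of 15 genes of antigen presentation 9 were higher, and of 6 receptor genes 2 were higher and 1 was lower. Leukocyte markers summed to at most 0.926 CPM in U2OS DMSO and 4.76 CPM in HEK293T DMSO libraries.

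**Figure D2:**
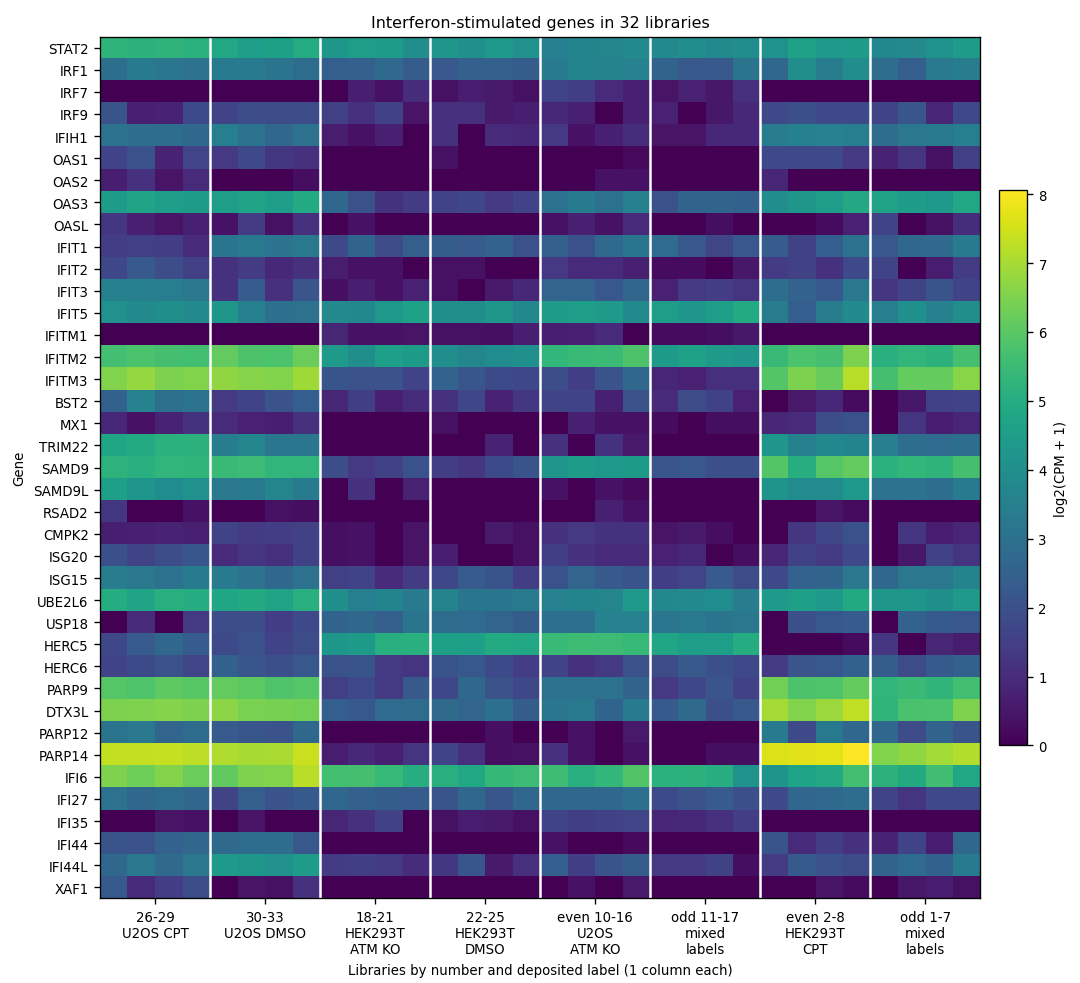
Heat map of log2(CPM + 1) for the 39 genes (rows, ordered by role) in the 32 libraries (columns, grouped by number with their deposited labels below). PARP14, DTX3L and IFITM3 are bright in libraries 26 to 33 and 1 to 8, and HERC5 is bright in libraries 10 to 25.

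The next comparison asked how the genes responded to CPT in U2OS, with libraries 26 to 29 against DMSO libraries 30 to 33. CPT was followed by a mixed response: IFIT3, TRIM22, BST2, SAMD9L, XAF1, IFIT2, ISG20 and OAS2 rose, and IFIT1, IFI44L, USP18 and CMPK2 fell. The transcripts with the highest levels, PARP14, IFITM3, DTX3L and IFI6, did not pass the test. Of 39 genes 35 were tested, 8 rose and 4 fell, beside 7.97% of all 19080 genes tested that rose and 5.5% that fell. Without a cutoff on the fold change 13 rose and 4 fell, beside 16.6% and 15.3% of all genes. The median log2 fold change was 0.21 for the 35 genes and 0.008 for all genes, and the summed level was 792 to 830 CPM with CPT and 717 to 905 CPM with DMSO, so that the sums overlapped.

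Among the IFIT proteins, which bind foreign RNA, neighbours in the same cluster went in opposite directions. IFIT3 read 10.6, 10.2, 10.0 and 8.42 CPM with CPT and 1.23, 4.13, 1.17 and 3.36 CPM with DMSO. Every CPT library lay above every DMSO library, and the log2 fold change was 2.14 ± 0.30 (SE, n = 4 and 4, adjusted p = 1.17e-06). IFIT1 read 1.77, 1.86, 1.73 and 0.936 CPM with CPT and 7.72, 8.60, 7.32 and 8.41 CPM with DMSO. It fell by 2.16 on the log2 scale (SE 0.31, adjusted p = 1.66e-06), again without overlap, and both promoters printed above hold 2 matches to the response element core. IFIT2 rose from 1.26 ± 0.347 to 2.68 ± 0.786 CPM (log2 fold change 1.25 ± 0.43, adjusted p = 0.024), a call that was lost without library 27 or 32. IFIT5 did not pass the cutoff on fold change, with overlapping arms, a log2 fold change of 0.65 ± 0.22 and an adjusted p of 0.0234.

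Of 6 other antiviral effectors tested 3 rose and 1 fell. TRIM22 read 25.6, 29.5, 34.3 and 35.6 CPM with CPT and 9.57, 12, 7.91 and 7.93 CPM with DMSO. The lowest CPT library was above the highest DMSO library, and the log2 fold change of 1.92 ± 0.17 (adjusted p = 1.87e-10) had the smallest p of the 39 genes. SAMD9L read 22.7, 17.7, 14.2 and 15.9 CPM with CPT and 8.34, 9.29, 11.7 and 9.13 CPM with DMSO (log2 fold change 1.04 ± 0.20, adjusted p = 8.44e-05). It fell under the cutoff of 1 without library 26 or 30. Its neighbour SAMD9 stood at 36.8 ± 2.20 and 41.1 ± 3.09 CPM, with a log2 fold change of 0.01 ± 0.13. Fitted fold changes use scaling factors between libraries and can differ from a ratio of CPM. ISG20, an exonuclease of viral RNA, stood at 2.83 ± 0.520 against 1.35 ± 0.424 CPM (1.18 ± 0.41, adjusted p = 0.0261), a call lost without library 26, 29, 30 or 32. CMPK2, a mitochondrial nucleotide kinase, stood at 0.631 ± 0.0438 against 1.89 ± 0.201 CPM (adjusted p = 0.0455) and lost its call whichever of the 8 libraries was left out.

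BST2, which tethers budding virus to the cell surface, read 4.71, 10.9, 6.93 and 7.49 CPM with CPT and 1.54, 2.06, 3.22 and 4.33 CPM with DMSO. It rose by 1.52 ± 0.32 on the log2 scale (adjusted p = 0.000384). IFITM3 at 94.7 ± 9.65 against 103 ± 12.4 CPM and IFITM2 at 50.7 ± 2.66 against 63.1 ± 10.2 CPM overlapped between the arms, and IFITM1 had no count.

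IFI44L read 5.59, 8.37, 5.89 and 8.11 CPM with CPT and 19.5, 18.2, 15.8 and 21.1 CPM with DMSO. It fell by 1.25 on the log2 scale (SE 0.20, adjusted p = 9.18e-06) with no overlap. XAF1, a proapoptotic partner of XIAP, read 3.83, 0.930, 1.73 and 2.81 CPM with CPT and 0, 0.344, 0.293 and 1.20 CPM with DMSO. It rose by 2.29 ± 0.62 on the log2 scale (adjusted p = 0.00437), or by 3.45 without library 33, although the lowest CPT library lay under the highest DMSO library. IFI27 stood at 6.05 ± 0.782 against 3.43 ± 0.985 CPM without overlap, just under the cutoff (0.98 ± 0.29, adjusted p = 0.00802). IFI6, an antiapoptotic membrane protein, overlapped between the arms at 83.6 ± 9.77 and 99.7 ± 35.1 CPM, and 1 DMSO library, number 33, read 150 CPM.

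Of the 5 genes of ISG15 conjugation, USP18 fell and the others did not pass. USP18 read 0, 0.930, 0 and 1.56 CPM with CPT and 2.78, 2.75, 1.76 and 2.40 CPM with DMSO (fell by 1.71, SE 0.59, adjusted p = 0.0258), and the call was lost without library 26, 28 or 31, while without library 29 the fall was 2.63. ISG15 itself stood at 8.45 ± 0.896 against 7.32 ± 1.51 CPM. UBE2L6, the conjugating enzyme, stood at 30.03 ± 3.21 against 28.1 ± 3.89 CPM.

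The 4 genes of ADP-ribosylation kept under the cutoff, with PARP12 nearest to it (0.90 ± 0.27, adjusted p = 0.0104) and PARP14 at 158 ± 3.95 against 142 ± 20.3 CPM (log2 fold change 0.32 ± 0.12, adjusted p = 0.0428). DTX3L read 89.9 ± 2.88 against 87.5 ± 8.28 CPM and PARP9 61.4 ± 3.88 against 62.7 ± 5.27 CPM. Among the transcription factors 0 of 3 tested passed both cutoffs, and STAT2 stood at 35.9 ± 1.01 against 25.6 ± 3.91 CPM (0.65 ± 0.14, adjusted p = 0.000613), higher in each CPT library than in any DMSO library. OAS3 stood at 22.1 ± 2.08 against 24.4 ± 4.01 CPM. OAS2 had 10 counts with CPT and 1 with DMSO, a ratio of 10.8 with an exact 95% interval of 1.53 to 468 (adjusted p = 0.0229), and lost its call without library 27, 30, 31 or 32. The single DMSO count lay in library 33. IRF7, IFITM1, RSAD2 and IFI35 were not tested.

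**Figure D3:**
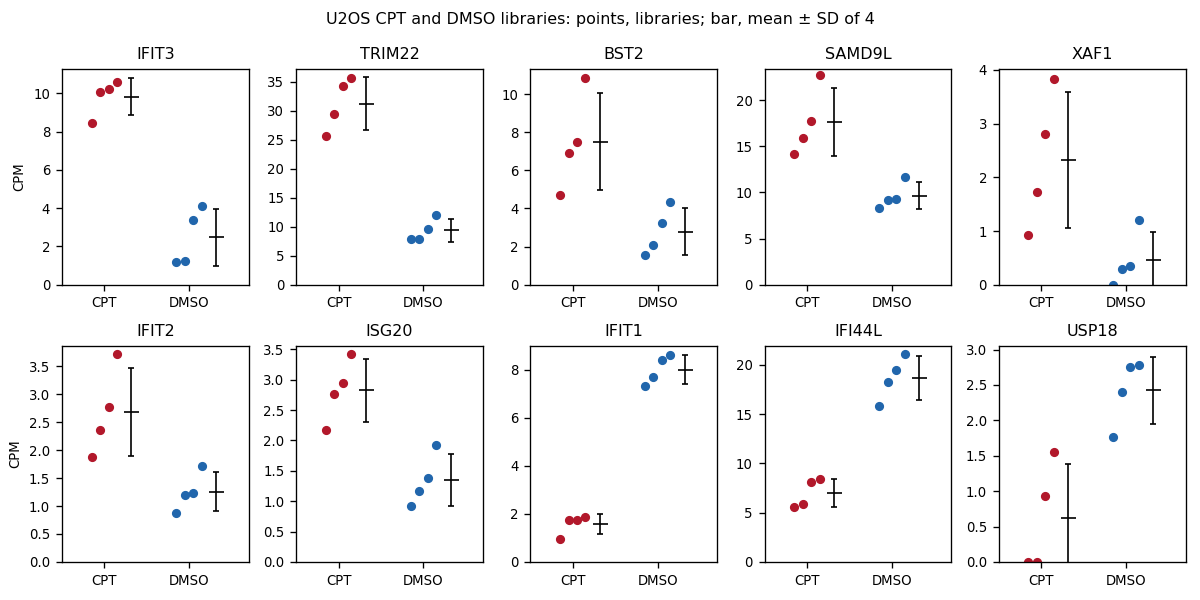
CPM per library (points, sorted by value within an arm) of the 10 genes with the largest fold changes among those that passed and reached a mean of 2 CPM, in U2OS libraries with CPT (26 to 29) and DMSO (30 to 33). Bars are the mean and SD of 4, and the arms overlap only for XAF1.

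Around the set in U2OS, no ligand gene passed, and IFNB1 had no count in any of the 32 libraries. SOCS1 read 0.589, 0.930, 0.346 and 1.25 CPM with CPT and 19.1, 12.4, 9.96 and 4.33 CPM with DMSO, and fell by 3.59 on the log2 scale (SE 0.44, adjusted p = 9.22e-08). SOCS3, a second inhibitor of the pathway, fell by 2.49 (SE 0.24, adjusted p = 6.83e-10). The other 8 of 10 tested kinases, STATs, IRFs and SOCS genes did not pass, and neither did any of 6 receptors. Among 12 tested genes of nucleic acid sensing 2 rose: TLR3, an endosomal sensor of double-stranded RNA, by 2.98 ± 0.27 and STING1 by 1.30 ± 0.30 on the log2 scale. Of 32 other interferon-induced genes tested 7 rose and 0 fell, and SP110, a nuclear body protein, stood at 74.3 against 22.9 CPM (1.84 ± 0.14, adjusted p = 7.76e-12). CCL5, a chemokine gene, also rose and rests on 11 counts against 1. Among 15 genes of antigen presentation 1, the peptide transporter TAP1, rose by 1.39 ± 0.14. All 6 p53 target genes rose, led by GDF15 (3.63 ± 0.16, adjusted p = 8.28e-18), and 5 of 7 genes listed as U2OS markers also rose, their sum being 5715 to 6905 CPM with CPT and 3317 to 4233 CPM with DMSO. Leukocyte markers summed to at most 1.77 CPM, with CD14, CD3E, LYZ and SPI1 at 0 in the CPT libraries. The part of these changes in those of the 39 genes was not tested.

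In HEK293T, libraries 18 to 21 with the label ATM KO were compared with DMSO libraries 22 to 25. None of the 39 genes passed in either direction. Of 27 genes tested, 3 had an unadjusted p under 0.05, beside 5.53% of 18413 genes, and 0% of all genes passed the test in either direction. The likelihood ratio test and DESeq2 also called 0 of the genes. The median log2 fold change was 0.13 for the genes and 0.003 for all genes. The summed level was 180 to 190 CPM in libraries 18 to 21 and 155 to 176 CPM in libraries 22 to 25, which did not overlap. With all 8 libraries labelled HEK293T DMSO as controls, 0 genes passed and the median was -0.85. Of those controls, libraries 3, 5 and 7 have U2OS-like markers and summed levels of 517 to 688 CPM. Their part in this median was not tested.

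The levels in these 8 libraries were low. IFI6 stood at 43.1 ± 8.69 against 36.4 ± 7.90 CPM (log2 fold change 0.32 ± 0.16, adjusted p = 0.894). HERC5 read 18.2, 20.2, 32.3 and 33.6 CPM against 23, 22.3, 29.6 and 26.7 CPM, which overlapped (0.08 ± 0.16, adjusted p = 0.977). IFITM2 stood at 19.2 ± 3.01 against 14 ± 1.46 CPM and UBE2L6 at 11.5 ± 2.71 against 8.78 ± 1.57 CPM, both with unadjusted p under 0.05 and adjusted p of 0.785 and 0.880. The third of these was SAMD9L, with 6 counts against 0. The log2 fold change of STAT2 was 0.21 ± 0.16 and that of ISG15 was -0.70 ± 0.40. None of the genes on any pathway list passed in this comparison.

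**Figure D4:**
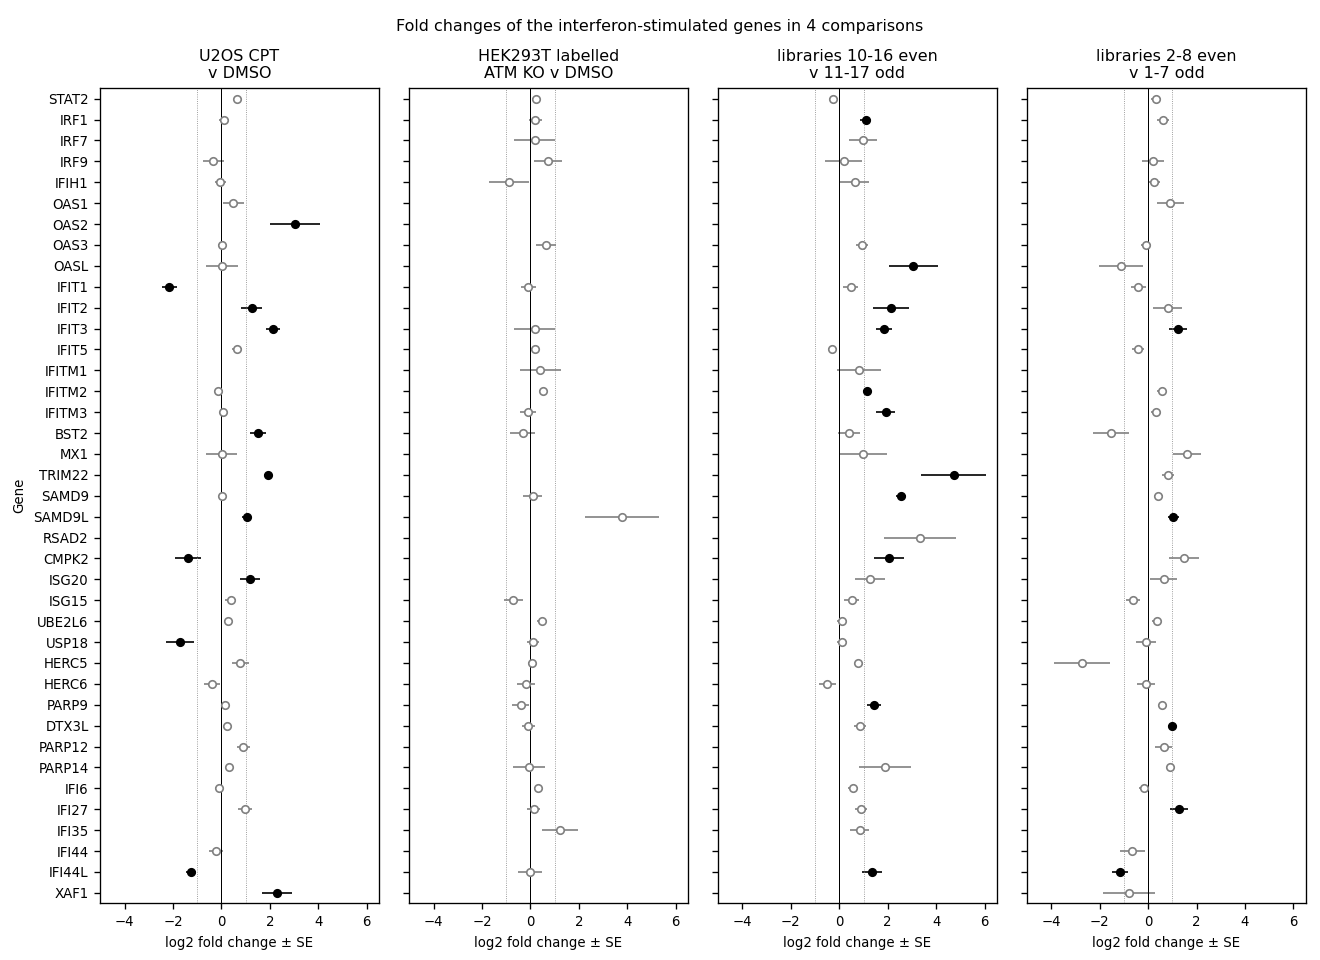
Log2 fold change ± SE (horizontal) of each gene that was tested (rows, ordered by role) in the 4 comparisons between arms of the same line, by markers. Filled points passed the test, dotted lines mark log2 fold changes of -1 and 1, and no point is filled in the HEK293T panel of libraries 18 to 25. For genes with an empty arm, such as TRIM22 in libraries 10 to 17, the fitted value depends on the prior count.

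Libraries 10, 12, 14 and 16 (labelled U2OS ATM KO, with HEK293T-like markers) were compared with libraries 11, 13, 15 and 17. Of 33 genes tested 11 were higher in the even-numbered libraries and 0 were lower, and IRF1, SAMD9, IFIT3, IFITM2, IFITM3 and PARP9 were among the 11. Of all 19464 genes tested 9.52% were higher and 4.45% lower. At an unadjusted p under 0.05, 18 of the genes were higher and 0 lower, beside 44.4% of all genes in either direction, and DESeq2 and the likelihood ratio test also called 0 lower. The median log2 fold change was 0.93 for the 33 genes, or 0.88 with 2 genes with an empty arm at their bound, against 0.041 for all genes. The summed level was 267 to 317 CPM in the even-numbered and 169 to 178 CPM in the odd-numbered libraries.

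SAMD9 read 17.5, 20.7, 18.9 and 20.3 CPM in libraries 10, 12, 14 and 16 and 3.37, 3.55, 2.89 and 2.88 CPM in libraries 11, 13, 15 and 17. The arms were far apart, with a log2 fold change of 2.56 ± 0.20 (SE, n = 4 and 4, adjusted p = 1.99e-09). Its neighbour SAMD9L had 3 counts in the even-numbered and 0 in the odd-numbered libraries, too few to enter the test. IFITM2 read 39.8, 42.3, 44.5 and 55.5 CPM against 19.9, 23.5, 19.8 and 17.7 CPM (1.15 ± 0.15, adjusted p = 3.47e-06). IFITM3 read 2.76, 1.85, 3.20 and 5.50 CPM against 0.842, 0.677, 1.11 and 1.11 CPM (1.91 ± 0.40, adjusted p = 0.000737). Neither gene overlapped between the arms.

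IFIT3 read 5.21, 5.25, 3.52 and 5.34 CPM against 0.674, 1.52, 1.78 and 1.33 CPM (1.86 ± 0.33, adjusted p = 0.00013). IFIT2 followed with 1.01 ± 0.377 against 0.195 ± 0.184 CPM (2.14 ± 0.73, adjusted p = 0.0264), and was no longer called without library 10, 11, 13 or 15. IFIT1 overlapped at 5.28 ± 1.95 and 3.85 ± 1.60 CPM, as did IFIT5 at 19 ± 3.67 and 22.7 ± 4.86 CPM. IRF1, the interferon gamma responsive factor, read 8.88, 11.4, 11.2 and 11 CPM against 4.88, 3.72, 3.78 and 7.54 CPM (1.08 ± 0.23, adjusted p = 0.00081), with all 4 even-numbered libraries higher. That call was lost without library 13 or 15.

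PARP9 read 7.04, 7.10, 7.04 and 4.87 CPM against 1.52, 2.37, 3.33 and 1.99 CPM (1.45 ± 0.29, adjusted p = 0.000415). PARP14 was close to absent in both arms, with 7 counts against 2. IFI44L read 4.29, 1.85, 3.20 and 4.24 CPM against 1.52, 1.52, 2 and 0.222 CPM (1.34 ± 0.41, adjusted p = 0.013), and the arms overlapped because library 12 lay under library 15. CMPK2 stood at 1.33 ± 0.146 against 0.267 ± 0.213 CPM, and OASL had 10 counts against 1, a ratio of 13.04 with an exact 95% interval of 1.85 to 566. TRIM22 had 11 counts against 0, so at least 4.78-fold higher in the even-numbered libraries, although library 12 was also at 0. The call of OASL was lost without library 11 or 13, and its single count in the odd-numbered arm lay in library 15, and that of IFI44L without library 16.

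HERC5 read 43.5, 46.0, 45.4 and 41.3 CPM against 25.8, 22, 21.8 and 31 CPM, without overlap but under the cutoff (0.79 ± 0.14, adjusted p = 0.000133). IFI6 stood at 44.1 ± 10.5 against 29.3 ± 8.87 CPM (0.57 ± 0.20, adjusted p = 0.0304). OAS3 (0.93 ± 0.24), IFI27 (0.88 ± 0.26) and DTX3L (0.86 ± 0.26) also had an adjusted p under 0.05 and a fold change under the cutoff. ISG15 stood at 3.86 ± 0.979 against 2.68 ± 0.941 CPM and USP18 at 8.81 ± 2.37 against 8.13 ± 0.487 CPM, both within the spread.

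With the controls cut to libraries 11, 13 and 15, which share the label U2OS WT, 11 genes were higher. With library 1 added, so that both groups followed their labels, 1 gene was higher and 0 lower, and the median was 0.39. Library 1 has U2OS-like markers, unlike the other libraries in that fit. Without libraries 15 and 16, an alternative chosen after seeing the data, 8 were higher. In the other lists, SOCS1 was higher by 3.24 ± 0.66 on the log2 scale, at 2.21 against 0.182 CPM, STING1 and IFI16 were higher among 13 genes of nucleic acid sensing, and 8 of 29 other interferon-induced genes were higher and 0 lower. The chemokine gene CXCL11 had 45 counts against 1, and GBP2, a guanylate-binding protein, stood at 5.58 ± 1.77 against 0.140 ± 0.169 CPM. No ligand gene was tested and no receptor passed, while the peptide transporter gene TAP2 was the only 1 of 14 genes of antigen presentation to pass, lower by 1.84 (SE 0.18). Of 6 p53 targets 4 were higher, with a sum of 677 to 986 against 226 to 456 CPM. U2OS markers summed to 77.5 to 111 CPM in the even-numbered and 40.3 to 52.7 CPM in the odd-numbered libraries, with TGFBI at 0 in the latter, and leukocyte markers to 4.01 to 9.28 and 3.77 to 5.73 CPM, with CD3E at 0 in both. Their part in the result was not tested.

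Libraries 2, 4, 6 and 8 (labelled HEK293T CPT, with U2OS-like markers) were compared with libraries 1, 3, 5 and 7. A small number of genes differed. IFIT3, SAMD9L, IFI27 and DTX3L were higher and IFI44L was lower in the even-numbered libraries, and of the 4 genes of ADP-ribosylation DTX3L alone passed. Of 34 genes tested 4 were higher and 1 was lower, beside 2.8% and 2.44% of all 18591 genes. Without a cutoff on fold change 8 were higher and 1 was lower, beside 6.43% and 6.56% of all genes. The median log2 fold change was 0.33 for the 34 genes and 0.040 for all genes. The summed level was 714 to 1057 CPM in the even-numbered and 454 to 688 CPM in the odd-numbered libraries. Library 8 was the highest at 1057 CPM and, over all genes, differed the most from libraries 4 and 6 of any pair within an arm. That difference was measured against counting noise and grows with depth, and libraries 6 and 8 were among the deepest. Libraries 1 and 2 were the shallowest of the series, and without library 8 the count of higher genes was 1.

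PARP14 read 198, 208, 214 and 267 CPM in libraries 2, 4, 6 and 8 and 91.0, 106, 122 and 141 CPM in libraries 1, 3, 5 and 7. The arms did not overlap, with a log2 fold change of 0.91 ± 0.15 (SE, n = 4 and 4, adjusted p = 6.21e-06), just under the cutoff of 1. DTX3L read 126, 91.9, 115 and 156 CPM against 38.1, 52.8, 54.2 and 90.5 CPM, also without overlap, with 1.00 ± 0.17 (adjusted p = 9.16e-06), so that its call rests on the place of the cutoff. PARP9 stood at 65.5 ± 12.5 against 41.9 ± 4.75 CPM (0.59 ± 0.16, adjusted p = 0.00772), and PARP12 at 6.33 ± 3.03 against 4.11 ± 1.42 CPM.

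SAMD9L read 17, 14, 13.9 and 18.9 CPM against 7.06, 7.36, 6.57 and 9 CPM (1.04 ± 0.23, adjusted p = 0.000906), and every even-numbered library was higher. The call was lost without library 5 or 8. SAMD9 overlapped at 55.0 ± 16.5 and 40.2 ± 6.93 CPM. IFIT3 read 6.49, 4.81, 3.64 and 8.42 CPM against 1.41, 2.16, 3.29 and 2.18 CPM (1.22 ± 0.37, adjusted p = 0.0183), and was lost without library 7 or 8. IFI27, a mitochondrial protein, read 2.43, 5.29, 5.73 and 6.36 CPM against 2.12, 1.30, 2.46 and 2.45 CPM (1.29 ± 0.38, adjusted p = 0.0139), with library 2 inside the range of the odd-numbered libraries, and was lost without library 3 or 6. IFI44L read 1.62, 3.85, 3.12 and 2.58 CPM against 4.94, 6.06, 4.65 and 9.27 CPM, was lower by 1.17 on the log2 scale (SE 0.34, adjusted p = 0.0137) without overlap, and lost its call without library 7.

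TRIM22 stood at 13.1 ± 3.28 against 7.23 ± 1.78 CPM without overlap, under the cutoff (0.82 ± 0.26, adjusted p = 0.0232). USP18 had no count in libraries 1 and 2 and 2.89 to 4.76 CPM in the other 6. The other genes of higher level did not pass. IFITM3 read 91.4 ± 39.1 against 72.7 ± 19.9 CPM, IFITM2 58.7 ± 19.7 against 39.6 ± 7.51 CPM, and OAS3 20.6 ± 5.70 against 22.7 ± 3.78 CPM. UBE2L6 stood at 22.6 ± 4.52 against 17.7 ± 1.86 CPM, STAT2 at 20.1 ± 3.06 against 15.6 ± 3.73 CPM, and IFI6 at 29.5 ± 13.2 against 34.6 ± 8.85 CPM. HERC5 had 1 count against 7, and its groups overlapped.

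With controls cut to libraries 3, 5 and 7, which share the label HEK293T DMSO, 3 genes were higher and 1 was lower. Against all 8 libraries labelled HEK293T DMSO, so that both groups followed their labels, 0 were higher and 1 was lower, and the median was 1.07. Those controls mix the lines by markers, U2OS-like in libraries 3, 5 and 7 and HEK293T-like in libraries 17 and 22 to 25. Without libraries 1 and 2, chosen after seeing the data, 2 were higher and 1 was lower. In the other lists SOCS1 was lower by 1.01 (SE 0.27, adjusted p = 0.00683), at 6.74 against 11.9 CPM. None of 12 genes of nucleic acid sensing, 30 other interferon-induced genes, 15 genes of antigen presentation or 6 receptors passed, and no ligand gene had a count. GDF15 was the only 1 of 6 p53 targets to pass, by 1.25 ± 0.17. U2OS markers summed to 1921 to 2383 CPM in the even-numbered and 3626 to 4597 CPM in the odd-numbered libraries, where COL1A1 was lower by 1.29 (SE 0.18) in the even-numbered ones, and leukocyte markers to at most 1.36 CPM. The part of these values in the result was not tested.

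**Figure D5:**
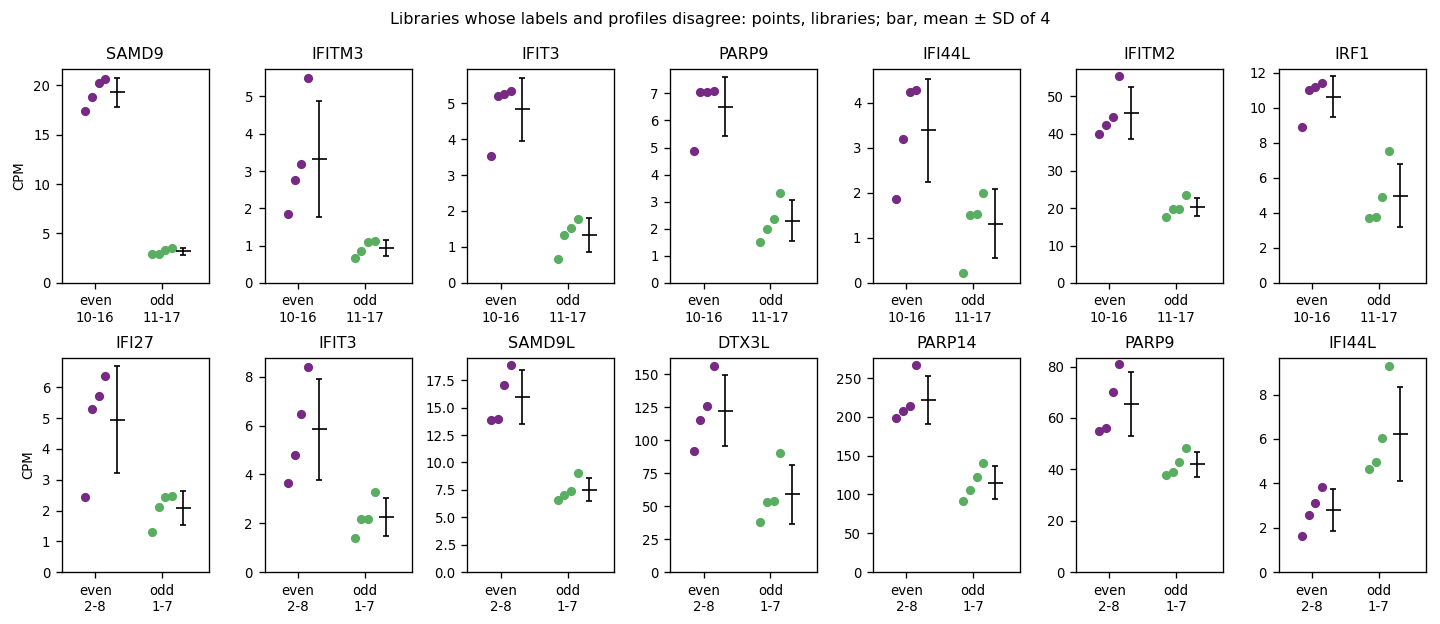
CPM per library (points, sorted by value within an arm) of 7 genes in libraries 10 to 17 (top) and 7 genes in libraries 1 to 8 (bottom), with the mean and SD of 4 as bars. SAMD9 separates widely in the top row, and IFI44L is higher in the even-numbered libraries in the top row and lower in the bottom row.

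Whether a gene responded differently in 2 comparisons that share no library was tested in one fit over all 32 libraries, with p adjusted over its 23638 genes, and read for genes that had been tested in both comparisons. Except for CPT in U2OS against libraries 1 to 8, the 2 comparisons differed in line by markers. In these differences the line, treatment or genotype, dose and library batch cannot be told apart. Between CPT in U2OS and the HEK293T libraries labelled ATM KO, 1 of 24 such genes of the set differed by more than 1 on the log2 scale, beside 8.84% of all 16364 such genes. Between CPT in U2OS and libraries 10 to 17, 8 of 29 differed, all with a lower fold change in the former, beside 15.3% of all genes. IFIT1 and IFI44L fell with CPT in U2OS and had fold changes above 0 in libraries 10 to 17, whereas IFIT3 was higher in both comparisons. For SAMD9 the log2 fold changes were 0.0049 and 2.54 in this fit, a difference of -2.54 ± 0.26 (adjusted p = 2.43e-12). Between CPT in U2OS and libraries 1 to 8, 6 of 34 genes differed, beside 12.2% of all genes, with 4 higher and 2 lower in the former. Between libraries 10 to 17 and 1 to 8, 8 of 29 differed, beside 14%, all with a higher fold change in libraries 10 to 17.

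Over the 4 comparisons between arms of one line by markers, IFIT3 passed in 3, IFI44L passed in 3 and in both directions, and SAMD9L, IFIT2, TRIM22 and CMPK2 passed in 2 each, CMPK2 in both directions. STAT2, IRF9, IFIH1, OAS1, OAS3, IFIT5, MX1, ISG15, UBE2L6, HERC6, PARP12, PARP14, IFI6 and IFI44 were tested in at least 1 of them and passed in none. RSAD2, IFITM1, IRF7, IFI35 and HERC5 also passed in none.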

How the data were processed

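RNA was profiled with QuantSeq 3′ libraries, which count tags near the end of a transcript. The authors deposited unnormalized read counts per Ensembl gene, made with the Lexogen pipeline for unique molecular identifiers; the aligner, build, annotation and strand setting are not given in the sources used here. Spike-in rows (92) and 5 summary rows, which held 10.9 to 40.6% of counts, were left out of library sizes. A gene entered a comparison when 2 or more of its libraries held over 1 count, and was tested with edgeR 4.0.16 in R 4.3.3 (TMM scaling, quasi-likelihood test, two-sided). Each SE of a log2 fold change was computed as its absolute value over the square root of the test's F statistic. It is approximate, the more so where an arm is near empty. The study's own edgeR test, the likelihood ratio test, was run as an alternative with DESeq2 1.42.0 and others given in the closing section. The fits of the U2OS CPT comparison and of libraries 10 to 17 were tested on simulated data. The 39 genes, the gene lists and the comparisons were chosen with earlier results of these data known. Some genes of these lists are not reported here by name. Genes given library by library were up to 10 per comparison that passed with a mean of at least 2 CPM, by fold change, and genes above 20 CPM that did not pass are given by their means, as is the gene of each list with the largest change; library values of SOCS1, HERC5 and PARP14, and genes near the cutoff, were added after their values were seen. Folds against an arm at 0 use a floor of 3 counts over the group. Intervals and floors cover counting error only.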

Additional observations from a re-analysis of the deposited data

Results flagged for a closer look

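Responses that differed between comparisons were tested as differences of log2 fold changes in a single edgeR fit over all 32 libraries, with Benjamini-Hochberg adjustment over 23638 genes, and read for genes tested in both comparisons. As above, line, treatment or genotype, dose and library batch cannot be told apart in them. IFIT1 differed between CPT in U2OS and the HEK293T libraries labelled ATM KO by -2.07 (adjusted p = 0.00274).

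CPT in U2OS had a lower log2 fold change than the even-numbered libraries 10 to 16 over 11 to 17 for 8 genes. The differences were -2.63 for IFIT1, -1.30 for IFITM2, -1.89 for IFITM3, -2.54 for SAMD9 and -3.42 for CMPK2. For USP18, PARP9 and IFI44L they were -1.84, -1.29 and -2.59.

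Against the even-numbered libraries 2 to 8 over 1 to 7, CPT in U2OS had a higher log2 fold change for IFIT5 (1.04), BST2 (3.07), TRIM22 (1.08) and HERC5 (3.56), and a lower one for IFIT1 (-1.79) and CMPK2 (-2.92). HERC5 rests on 1 count in libraries 2 to 8 and 7 in libraries 1 to 7, and BST2 on 7 and 16 counts there. In U2OS, CMPK2 rests on 8 counts with CPT and 26 with DMSO, a call lost whichever library was left out. This also bears on its difference from libraries 10 to 17. Between libraries 10 to 17 and libraries 1 to 8, the former had the higher log2 fold change for 8 genes. The differences were 1.01 for OAS3, 4.03 for OASL, 1.62 for IFITM3, 3.48 for TRIM22 and 2.11 for SAMD9. For ISG15, HERC5 and IFI44L they were 1.11, 3.55 and 2.50. OASL and TRIM22 rest on 1 and 0 counts in libraries 11 to 17.

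In 8 of 173 groups of 4 libraries with a mean of at least 2 CPM, the lowest or highest library lay far from the other 3 by Dixon's criterion, where chance gives about 1 in 20. Library 16 was high in IFI27 (6.76 CPM, the others 5.44 to 5.56) and UBE2L6 (19.2 CPM, the others 11 to 11.8), and low in PARP9 (4.87 CPM, the others 7.04 to 7.10). Library 14 was low in IFIT3 (3.52 CPM, the others 5.21 to 5.34) and library 10 in IRF1 (8.88 CPM, the others 11 to 11.4). Library 4 was high in IRF9 (2.89 CPM, the others 2.41 to 2.43), library 8 low in OAS1 (1.55 CPM, the others 2.41 to 2.43) and library 1 high in TRIM22 (9.88 CPM, the others 6.02 to 6.54).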

How the results depend on the processing

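For CPT in U2OS, DESeq2 called 5 of the genes higher and 2 lower, the filterByExpr filter left 4 and 2, and 13 were higher with no cutoff on fold change. Leaving out each library there gave 5 to 10 higher (5 without library 30 or 32) and 2 to 3 lower (2 without library 26, 28 or 31). For libraries 10 to 17, filterByExpr left 5 higher, both groups by label alone 1, and leaving out each library 9 to 12 higher and 0 lower. By label alone the log2 fold changes of TRIM22 (-1.19), PARP9 (-0.87) and IFITM3 (-2.03) reversed, where library 1 has U2OS-like markers. For libraries 1 to 8, DESeq2 called 1 higher and 0 lower, no cutoff gave 8 higher, labels alone gave 0, and without libraries 1 and 2 there were 2. Leaving out each library gave 1 to 4 higher (1 without library 8, 2 without library 3 or 5) and 0 to 1 lower (0 without library 7). For U2OS against HEK293T, DESeq2 and filterByExpr each called 1 lower, and leaving out each library gave 25 to 27 higher and 1 to 3 lower (1 without library 23, 24, 30, 31, 32 or 33). The causes of these shifts were not tested. In HEK293T libraries 18 to 25 the count was 0 in either direction under all alternatives run. Over all comparisons and alternatives in which a called gene was still tested, 786 values kept their direction and call, 84 lost the call and 3 reversed. Called genes that an alternative's filter removed are not in these counts. The alternative with no cutoff on fold change uses the main fit and cannot lose a call. The median log2 fold change moved beyond the spread with all 8 HEK293T DMSO libraries as controls (-0.85), and by label alone in libraries 10 to 17 (0.39) and 1 to 8 (1.07). In each of these fits the control arm mixed libraries with U2OS-like and HEK293T-like markers. It also moved for U2OS against HEK293T under filterByExpr (2.94) and without library 33 (2.44). No paired analysis was possible because each library carries a number of its own, no number is shared between groups, and no label says which libraries of both arms belong to the same repeat. Genes under 3 counts in an arm are limited by depth.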
